A study of Mus musculus with 9 samples.

Results

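The genes described here encode ion channels that set the electrical excitability of hormone-secreting cells: the subunits of the ATP-sensitive potassium (KATP) channel, Abcc8 and Kcnj11, the pores of voltage-gated calcium channels, Cacna1a, Cacna1c, Cacna1d and Cacna1h, the pore of a voltage-gated sodium channel, Scn3a, and the sensory cation channels Trpa1 and Piezo2. They were chosen by symbol, and all 9 were found among the 35013 gene symbols of each deposited table. The values come from bulk RNA-Seq of small intestine epithelium sorted by flow cytometry, taken from NFKO mice (Neurog3Cre-FoxO1 f/f; Rosa26tdtomato) at an age of 4 to 6 weeks. Every population came from mice with this genotype, so all of them, the reference population included, carry the floxed FoxO1 alleles, the Cre and the reporter, and no library of FoxO1-intact mice was analysed here. Neurog3Cre is active in endocrine progenitors, and the Tomato protein marks their descendants, in which FoxO1 is deleted. CD24negTomato+ and CD24+Tomato+ cells are marked cells without and with surface CD24, and Tomatoneg cells are the unmarked epithelial cells, with 3 libraries of each. Each Tomato+ population has a table of its own, and the same Tomatoneg libraries stand in both tables. The comparisons therefore share their reference libraries and are not independent, and the Tomato+ populations, which were scaled in separate tables, were not tested against each other.

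Enteroendocrine cells, like pancreatic β cells, are electrically excitable. Closure of KATP channels by ATP depolarizes the membrane, sodium and T-type calcium channels help to start action potentials, and calcium entry through L-type and P/Q-type channels triggers the release of hormone granules. Trpa1, a receptor for irritants, and Piezo2, which opens when the membrane is stretched, are known as sensors of serotonin-secreting enterochromaffin cells. The calcium channel pores are related proteins, and Cacna1c and Cacna1d, both L-type, are so alike that their transcripts share stretches of coding sequence. The longest such stretch (43 bases, from the GENCODE M21 transcripts of GRCm38, in coding direction, identical throughout) is shown because a read that falls wholly in it cannot be given to either gene alone.

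Cacna1c and Cacna1d: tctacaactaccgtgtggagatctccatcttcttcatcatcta

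Only 34 of the 21430 words of 31 bases in Cacna1c transcripts (0.159%) occurred in any other gene, 18 of them in Cacna1d. No word of Abcc8, Kcnj11 or Trpa1 did so, and 0.0518% of those of Piezo2. The share was 2.07% for Cacna1h, 3.09% for Cacna1a, 4.71% for Cacna1d and 9.57% for Scn3a. Most of the shared words of Scn3a (822 of 1195) were in Scn2a, another sodium channel, which did not exceed 9.37 normalized counts in any library. Most of those of Cacna1d (559 of 602) were in its neighbour Chdh, a choline dehydrogenase, and most of those of Cacna1h (128 of 203) in Tpsg1, a tryptase. The values of Chdh and Tpsg1 stand beside the results they touch. For Cacna1a, 347 of the 356 shared words were in Gm16183. Its values are not given here, and its part in the Cacna1a estimates was not tested.

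Values are normalized counts, that is, read counts estimated per gene and divided by the authors' size factor of a library. They are given for replicates 1, 2 and 3 in turn. Depth was estimated at 27723742 to 39234462 reads for Tomato+ and 19158348 to 24368832 reads for Tomatoneg libraries, and 3 reads, taken as the floor of detection, correspond to 2.10 to 2.92 and 3.23 to 4.29 normalized counts. Tomatoneg replicate 1 stood apart: 13025 genes were above 0 in it, against 15644 and 16008 in the other Tomatoneg libraries. It listed Kcnj11, Cacna1d, Cacna1h, Scn3a, Trpa1 and Piezo2 at 0. The values of the Tomatoneg libraries differed between tables by a median ratio (CD24+Tomato+ table over CD24negTomato+ table) of 1.024 to 1.078, but the ratio was 1.175 to 1.237 for Cacna1c and 0.769 to 0.789 for Scn3a, so levels were not compared across tables by test. Foxo1, the deleted gene, had 467, 274 and 371 normalized counts in CD24negTomato+ libraries and 695, 518 and 424 in Tomatoneg libraries, and the groups overlapped (log2 fold change -0.56, limma adjusted P = 0.427). In CD24+Tomato+ libraries it had 319, 193 and 201, below the 748, 529 and 444 of the Tomatoneg libraries (-1.27, limma adjusted P = 0.0579, 0.0219 in the blocked fit, which pairs libraries that share a number). The estimate covers the whole transcript and not the deleted part alone.

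The marker genes of enteroendocrine cells were at higher levels in both Tomato+ populations. Their summed normalized counts (9 genes, among them Chga, Chgb and Neurod1) were 36676 to 86384 in CD24negTomato+ and 1749 to 3841 in Tomatoneg libraries, where 5 of 9 rose (8 in the blocked fit, and 9 had an unadjusted P under 0.05), and 74522 to 154972 in CD24+Tomato+ libraries against 1837 to 3936, where 9 of 9 rose in either fit. Enterochromaffin markers (5 genes, among them Tph1) summed to 7789 to 11510 against 2441 to 4215, with 1 higher (4 in the blocked fit, Tph1 among them), and to 13717 to 19903 against 2519 to 4453, with 5 higher. Of all genes tested, 0.999% and 8.02% were higher (4.34% and 10.8% in the blocked fit). At an unadjusted limma P under 0.05, 1377 of 13420 genes were higher in CD24negTomato+ cells. In bulk libraries, more cells of a type and more transcript per cell cannot be told apart, and the part of this difference in the channel results below was not tested.

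Genes were tested where the 6 libraries of a table averaged 10 normalized counts or more, which left 8 of the 9 channels in each table and excluded Piezo2. Between CD24negTomato+ and Tomatoneg cells, 1.32% of all 13420 genes tested passed an adjusted P of 0.05, with 0.999% higher and 0.32% lower. Of the 8 channels, 1 rose, Trpa1, and 7 were higher at an unadjusted limma P under 0.05, all but Cacna1c. Of all 13420 genes, 1377 were higher and 915 lower at that unadjusted limit. When the replicate number entered as a block, 4.34% of all genes were higher and 2.96% lower, and higher were also 3 of the 8 channels, Trpa1, Scn3a and Cacna1a. Between CD24+Tomato+ and Tomatoneg cells, 12.9% of 13874 genes passed, with 8.02% higher and 4.89% lower (10.8% and 9.95% with the block), and 8 of the 8 channels rose, with and without the block. For 8 of the 9 channels every Tomato+ library was above every Tomatoneg library in each table, as was the case for 14.7% and 21.6% of the genes tested (10.6% and 14.4% were below). The median log2 fold change of the 8 channels was 4.03 (range 2.0 to 6.09) in CD24negTomato+ and 5.48 (3.98 to 7.41) in CD24+Tomato+ cells, where all genes tested had medians of 0.08 and 0.16. Kcnj11, Cacna1d, Scn3a and Trpa1 averaged under 10 in Tomatoneg libraries, so they passed the filter through the Tomato+ group and had to differ, and these counts and medians include them. The split of all calls into higher and lower was 134 and 43 in the first comparison, and 98 and 60 with library totals made equal. In the second it was 1113 and 678, and 847 and 810 with quantile normalization.

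**Figure D1:**
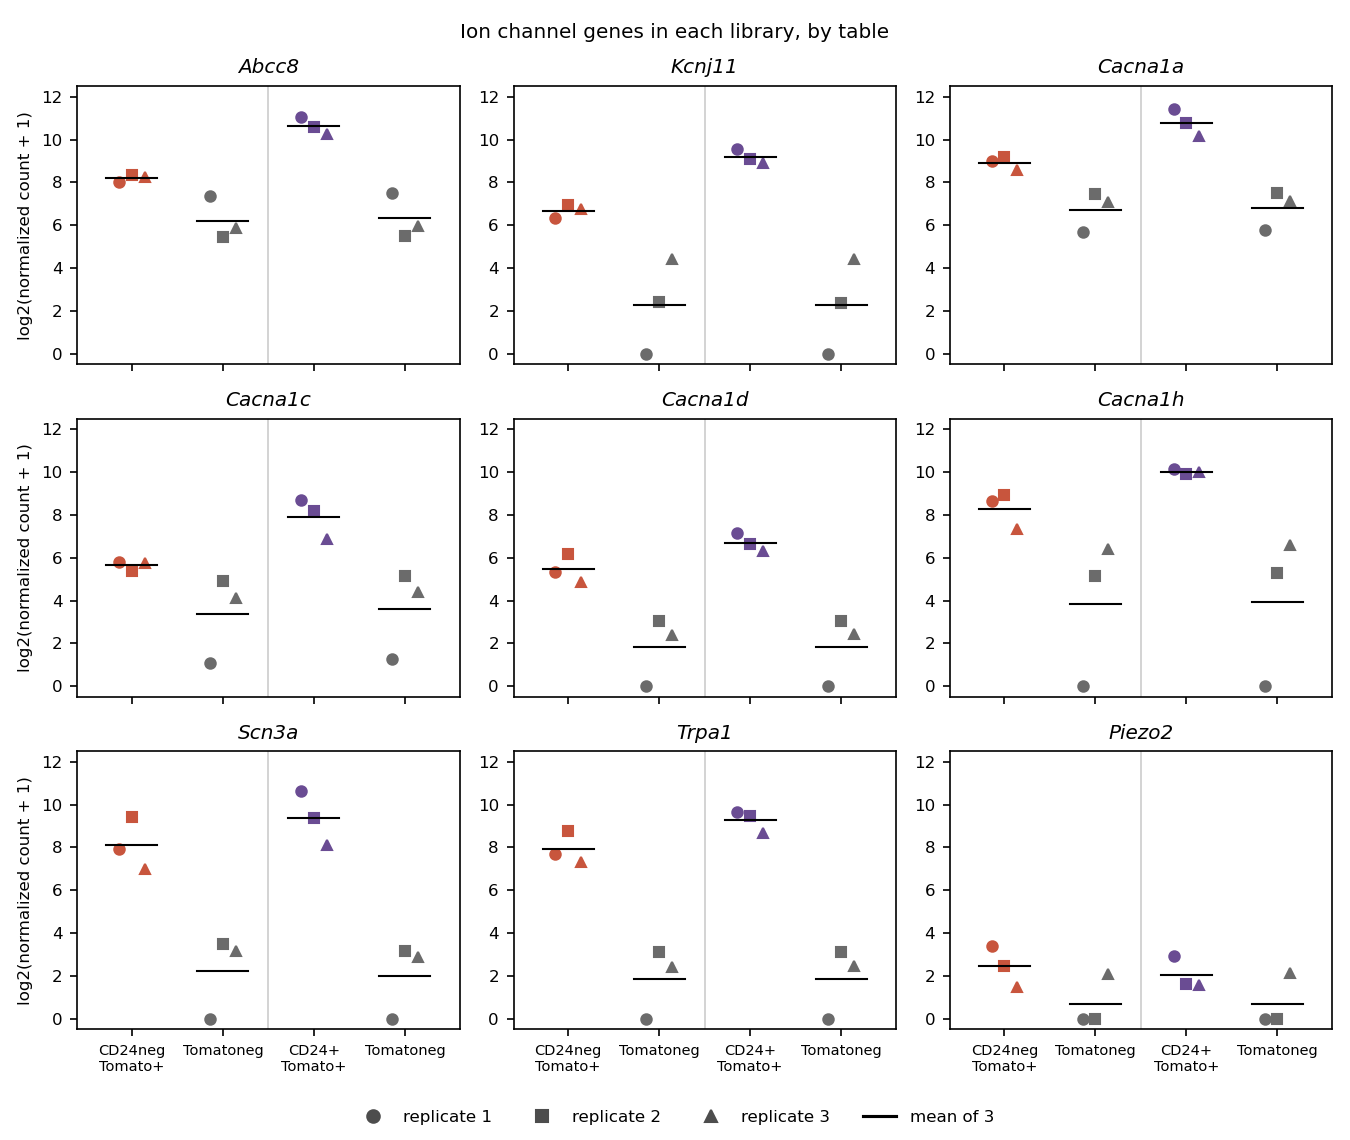
Normalized counts on a log2(normalized count + 1) scale (y axis) of the 9 channel genes in each library, in 4 columns for the groups of both tables, with symbols for the replicate number and a bar for the mean of 3 libraries. The Tomato+ libraries lie above the Tomatoneg libraries of their table for 8 genes and overlap them for Piezo2, and Tomatoneg replicate 1 lies at 0 for 6 genes.

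The KATP channel consists of a pore, encoded by Kcnj11, and a sulfonylurea receptor, encoded by Abcc8, which is the target of glucose-lowering sulfonylureas. The genes are neighbours on the minus strand of chromosome 7 (GRCm38, Kcnj11 at 46093953 to 46100764 and Abcc8 at 46104523 to 46180033). Abcc8 had 261, 321 and 304 normalized counts in CD24negTomato+ libraries (mean 296 ± 31.03, SD, n = 3) and 162, 41.9 and 56.6 in Tomatoneg libraries (86.7 ± 65.3). The groups did not overlap, although Tomatoneg replicate 1, which lacked other channels, was the highest of its group. The log2 fold change was 2.0 (SE 0.55, 95% interval 0.71 to 3.29), the smallest of the 8, and did not pass the test (limma adjusted P = 0.127). Without Tomatoneg replicate 1 the adjusted P was 0.0132, and over all settings run it was 0.0132 to 0.445. The CD24+Tomato+ libraries held 2125, 1527 and 1220 normalized counts of Abcc8 against 180, 44.4 and 61.4. It rose by 4.30 on the log2 scale (SE 0.55, 95% interval 3.03 to 5.58, limma adjusted P = 0.00611), and it was the only channel of the 9 that passed the test under every setting run (0.00056 to 0.0479).

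Kcnj11 had 80.8, 120 and 108 normalized counts in CD24negTomato+ libraries and 0, 4.27 and 20.6 in Tomatoneg libraries. No CD24negTomato+ library was as low as any of these, but the log2 fold change of 4.41 (SE 1.15) did not pass the test (limma adjusted P = 0.113, and 0.0381 without Tomatoneg replicate 1). It had 751, 544 and 482 in CD24+Tomato+ libraries, against 0, 4.12 and 20.4, and rose by 6.93 (SE 1.09, limma adjusted P = 0.0101). The call was lost without CD24+Tomato+ replicate 2 (limma adjusted P = 0.0734) or replicate 3 (0.0577). Beside the KATP genes, which are also known from β cells, the islet list of 9 genes summed to 5027 to 13599 normalized counts in CD24negTomato+ and 1849 to 8787 in Tomatoneg libraries, with 0 genes called by limma (3 with an unadjusted P under 0.05, Ins1, Ins2 and Ucn3, all higher). In the blocked fit these 3 rose (limma adjusted P = 0.0359, 0.0308 and 0.0423). In CD24negTomato+ libraries Ins1 had 62.9, 234 and 2871 normalized counts and Ins2 had 269, 614 and 5471, mostly in replicate 3. Tomatoneg libraries had at most 43.3 of Ins1 and 90.6 of Ins2. Ucn3 was more even, with 101, 83.6 and 74.2 against at most 4.27. The list summed to 1814 to 3971 in CD24+Tomato+ against 1966 to 9604 in Tomatoneg libraries, with 2 higher, Iapp and Ucn3, and in the blocked fit 1 lower, Slc2a2. In Tomatoneg libraries most of the sum was Slc2a2, a glucose transporter that enterocytes also express. The same held in CD24negTomato+ replicates 1 and 2, with 12561 and 3505 normalized counts of Slc2a2. Mafa, a β-cell transcription factor, had 0, 4.46 and 19.3 normalized counts in CD24negTomato+ libraries and at most 3.50 in CD24+Tomato+ libraries.

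Cacna1a encodes the pore of P/Q-type calcium channels, which drive transmitter release at synapses. It had 506, 574 and 378 normalized counts in CD24negTomato+ libraries and 49.7, 176 and 133 in Tomatoneg libraries, where replicate 1 was the lowest. The groups did not overlap, and the log2 fold change was 2.18 (SE 0.52, limma adjusted P = 0.0901). In the blocked fit the adjusted P was 0.0440, without Tomatoneg replicate 1 it was 0.0323, and over all settings it ran from 0.0323 to 0.367. Its values in CD24+Tomato+ libraries were 2757, 1722 and 1155, against 53.8, 181 and 140, and rose by 3.98 (SE 0.53, limma adjusted P = 0.00684), the smallest rise of the 8 channels there. It missed the threshold only without CD24+Tomato+ replicate 2 (limma adjusted P = 0.0513).

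The L-type pores Cacna1c and Cacna1d, whose current couples depolarization to insulin release in β cells, were at lower levels. Cacna1c had 53.8, 41.2 and 52.2 normalized counts in CD24negTomato+ libraries and 1.12, 29.0 and 16.6 in the Tomatoneg group. The interval of its log2 fold change (2.26, SE 1.08, 95% interval -0.25 to 4.78) included 0 (limma adjusted P = 0.335). The CD24+Tomato+ libraries had 407, 288 and 115, against 1.39, 34.0 and 19.97, and the gene rose by 4.31 (SE 1.09, limma adjusted P = 0.0426). The call was lost without CD24+Tomato+ replicate 1, 2 or 3 (limma adjusted P = 0.159, 0.182 and 0.0977), without Tomatoneg replicate 3 (0.0584) and with library totals made equal (0.0547), and the adjusted P over all settings was 0.0156 to 0.182. Cacna1d had 39.0, 72.0 and 27.97 normalized counts in the CD24negTomato+ group, above the 0, 7.20 and 4.26 of the Tomatoneg group (log2 fold change 3.65, SE 1.10, limma adjusted P = 0.154). With 143, 99.1 and 78.6 in CD24+Tomato+ libraries, against 0, 7.15 and 4.34, it rose by 4.90 (SE 0.99, limma adjusted P = 0.0214). Without CD24+Tomato+ replicate 1, 2 or 3 this call was lost (0.107, 0.128 and 0.0859). Chdh, which shares words with Cacna1d, moved otherwise: its log2 fold change was -0.06 in CD24negTomato+ (limma adjusted P = 0.921) and it fell by 1.05 in CD24+Tomato+ cells (limma adjusted P = 0.0270).

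These L-type genes were the ones among the 9 with promoters in the RefSeq table of GRCm38.p6, which holds 3 starts of Cacna1c and 2 of Cacna1d. The 250 bases upstream of 3 of the 5 starts are shown, because the windows differ in the motifs they hold. An E-box of the letters CAGATG on either strand, the form known for basic helix-loop-helix factors of the NeuroD and neurogenin families, is in capitals. All windows are on the minus strand and are written in the direction of transcription.

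Cacna1c, chr6:118757975-118758224: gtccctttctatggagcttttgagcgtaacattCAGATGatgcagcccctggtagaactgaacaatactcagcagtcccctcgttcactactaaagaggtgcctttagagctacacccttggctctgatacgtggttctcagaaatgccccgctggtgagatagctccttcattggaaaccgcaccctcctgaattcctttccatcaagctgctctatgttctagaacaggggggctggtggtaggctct

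Cacna1c, chr6:119108496-119108745: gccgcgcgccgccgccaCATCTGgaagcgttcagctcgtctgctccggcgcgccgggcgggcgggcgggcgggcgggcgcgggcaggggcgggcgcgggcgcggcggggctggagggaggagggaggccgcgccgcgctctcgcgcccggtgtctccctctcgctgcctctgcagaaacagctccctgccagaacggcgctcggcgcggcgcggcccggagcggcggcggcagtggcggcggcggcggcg

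Cacna1d, chr14:30353487-30353736: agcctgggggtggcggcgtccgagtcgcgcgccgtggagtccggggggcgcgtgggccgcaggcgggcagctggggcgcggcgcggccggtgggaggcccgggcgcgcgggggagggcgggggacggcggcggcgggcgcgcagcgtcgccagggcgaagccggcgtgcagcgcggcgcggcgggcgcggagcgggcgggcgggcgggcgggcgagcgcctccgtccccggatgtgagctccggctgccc

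Both Cacna1c windows held 1 E-box, and the Cacna1d window held none. Of all 32851 promoters of the table, 14.4% held this E-box in the same 250 bases on either strand. The second Cacna1c window and the Cacna1d window were rich in G and C (82.8% and 86.4%) and held 6 and 5 copies of the GC box GGGCGG on either strand, which 32.7% of all promoters held at least once. The first Cacna1c window had 50.4% G and C and no GC box. The remaining start of each gene held neither motif. The forkhead motif TGTTTAC on either strand, of the kind that FoxO proteins bind, was in none of the 5 windows and in 3.17% of all promoters. The deposited counts are per gene, so they do not tell which start was used.

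Cacna1h encodes the pore of T-type calcium channels, which open at small depolarizations. It had 394, 492 and 159 normalized counts in CD24negTomato+ libraries and 0, 34.1 and 84.0 in Tomatoneg libraries. The range within the Tomatoneg group, from none to 84.0, was the widest of the 9 channels on the log2 scale, and the log2 fold change of 4.45 had an SE of 1.53 (limma adjusted P = 0.200). Without Tomatoneg replicate 1, the library at 0, the log2 fold change of Cacna1h was 2.53, the lowest over all settings run. In the CD24+Tomato+ group it had 1130, 956 and 1035, against 0, 37.5 and 94.5, the narrowest spread relative to its mean of any channel there, and rose by 6.07 (SE 1.53, limma adjusted P = 0.0417). Without CD24+Tomato+ replicate 1, 2 or 3 the adjusted P was 0.125, 0.153 and 0.136, and without Tomatoneg replicate 2 it was 0.0680. Without Tomatoneg replicate 1 the log2 fold change of Cacna1h there was 4.10, also the lowest over all settings (limma adjusted P = 0.00222). Tpsg1, which overlaps it in sequence, was abundant in the same libraries, with 2672 to 3032 normalized counts in CD24negTomato+ and 2591 to 3400 in CD24+Tomato+ against 64.6 to 428 and 69.9 to 441 in Tomatoneg libraries (log2 fold change 3.69, limma adjusted P = 0.0510, 0.0232 with the block, and 3.6, limma adjusted P = 0.0173). Its part in the Cacna1h estimates was not tested.

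Scn3a encodes a sodium channel pore of neurons and endocrine cells. Relative to their mean, its values spread more among the Tomato+ libraries than those of any other channel tested, with 241, 696 and 127 normalized counts in CD24negTomato+ and 1597, 673 and 272 in CD24+Tomato+ libraries. In Tomatoneg libraries it was at 0, 10.2 and 8.09 in one table and at 0, 7.83 and 6.38 in the other, so the groups were far apart. The log2 fold change was 5.90 in CD24negTomato+ (SE 1.11, limma adjusted P = 0.0531). The adjusted P was 0.0257 with the replicate block, 0.0187 without Tomatoneg replicate 1, and 0.0187 to 0.314 over all settings. In CD24+Tomato+ cells Scn3a rose by 7.37 (SE 1.06, limma adjusted P = 0.00853), and the call was lost without replicate 2 of that group (0.0616).

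Trpa1 was the channel with the largest log2 fold change in both comparisons on the log2(normalized count + 1) scale, but its lead over Scn3a (7.41 against 7.37 in CD24+Tomato+ cells) was smaller than their errors. With a pseudocount of 10 Scn3a came first in both, and by the ratio of means it did so in CD24+Tomato+ cells (179-fold against 156-fold). It had 208, 434 and 158 normalized counts in CD24negTomato+ libraries (267 ± 147, SD, n = 3) and 0, 7.61 and 4.30 in Tomatoneg libraries (3.97 ± 3.82). It rose by 6.09 (SE 0.97, 95% interval 3.84 to 8.34, limma adjusted P = 0.0349), the only channel of the 9 called there without the block. Without CD24negTomato+ replicate 1, 2 or 3 the adjusted P was 0.216, 0.255 and 0.123, without Tomatoneg replicate 3 it was 0.0529, and over all settings it was 0.00902 to 0.255. Its values in the CD24+Tomato+ group were 802, 708 and 414, against 0, 7.79 and 4.51, and rose by 7.41 (SE 0.91, 95% interval 5.27 to 9.54, limma adjusted P = 0.00555). Without CD24+Tomato+ replicate 2 the adjusted P was 0.0523.

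Piezo2 (chromosome 18, 63010213 to 63387183, minus strand) was hardly detected. It had 9.45, 4.45 and 1.84 normalized counts in CD24negTomato+ libraries, 6.56, 2.10 and 1.94 in CD24+Tomato+ libraries, and 0, 0 and 3.22 in the Tomatoneg libraries of the first table (0, 0 and 3.38 in the second). All Tomatoneg values were below the floor of 3 reads, and the groups overlapped in both tables. At this depth a difference was not detectable. When genes of any level above 0 were kept, its log2 fold changes were 1.75 (limma adjusted P = 0.402) and 1.33 (limma adjusted P = 0.386). It stood near 0 in the same libraries in which Trpa1, the other sensory channel, had 158 to 802 normalized counts.

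**Figure D2:**
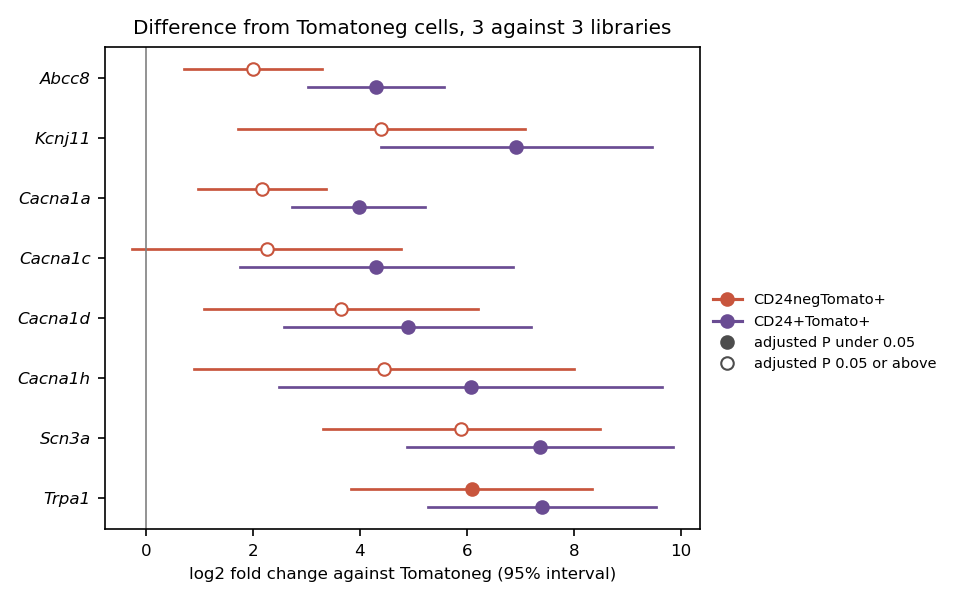
Log2 fold changes against Tomatoneg cells (x axis, on the log2(normalized count + 1) scale) of the 8 channels tested, with 95% intervals from limma and 3 libraries per group, for CD24negTomato+ and CD24+Tomato+ cells. Filled points have an adjusted P under 0.05 in the limma fit without the replicate block. This holds for Trpa1 in both comparisons and for the other 7 channels in CD24+Tomato+ cells alone, a difference between populations that was not tested. With the block, Cacna1a and Scn3a also passed in CD24negTomato+ cells (limma adjusted P = 0.0440 and 0.0257).

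The other channel genes are on chromosome 8 (Cacna1a, 84388440 to 84640246, plus strand), chromosome 6 (Cacna1c, 118587240 to 119196418, minus strand), chromosome 14 (Cacna1d, 30039939 to 30491455, minus strand), chromosome 17 (Cacna1h, 25374285 to 25433783, minus strand), chromosome 2 (Scn3a, 65457118 to 65567627, minus strand) and chromosome 1 (Trpa1, 14872648 to 14918862, minus strand) of GRCm38. Dividing by the merged exon length of each gene in kilobases allows levels to be compared between genes. Per kilobase, the mean level in CD24+Tomato+ libraries was 333 normalized counts for Abcc8 (range 250 to 436), 237 for Cacna1a (146 to 348), 188 for Kcnj11 (153 to 239), 150 for Trpa1 (97.1 to 188), 126 for Cacna1h (116 to 137) and 87.4 for Scn3a (28.1 to 165). Each of these overlapped its neighbours in the order. The L-type genes came after a gap, with 17.7 for Cacna1c (7.59 to 26.7) and 11.9 for Cacna1d (8.75 to 15.9), which overlapped each other, and Piezo2 last with 0.326.

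In CD24negTomato+ libraries the means per kilobase were closer together. Trpa1 had 62.5 normalized counts per kilobase (37.1 to 102), Cacna1a 61.3 (47.7 to 72.4), Abcc8 60.6 (53.6 to 65.9), Cacna1h 42.3 (19.3 to 59.7), Scn3a 36.6 (13.1 to 71.8) and Kcnj11 32.8 (25.7 to 38.3), all overlapping their neighbours. Cacna1d, with 5.16 (3.11 to 8.01), and Cacna1c, with 3.23 (2.71 to 3.54), were again below them all and overlapped each other. In Tomatoneg libraries of that table, Abcc8 had 17.8 (8.60 to 33.2) and Cacna1a 15.1 (6.27 to 22.2), while the other 7 channels had means of 0.0987 to 4.78. The order of the channels was the same in each group when the longest transcript was used in place of the merged exons.

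Since channel and enteroendocrine marker transcripts were both higher in Tomato+ cells, each channel was also set against the summed enteroendocrine markers of its own library. This measure was chosen after the values were seen and is given without a test. Per 1000 marker counts, Abcc8 had 7.12, 3.72 and 7.50 in CD24negTomato+ libraries, 13.7, 11.7 and 16.4 in CD24+Tomato+ libraries, and 50.4, 10.9 and 32.4 in Tomatoneg libraries of the first table. Relative to these markers Abcc8 was thus lower in every CD24negTomato+ library than in any other library of its table. Cacna1a had 13.8, 6.64 and 9.33 in CD24negTomato+, 17.8, 13.2 and 15.5 in CD24+Tomato+ and 15.5, 45.8 and 75.8 in Tomatoneg libraries, where each value was above the highest of CD24negTomato+. Per 1000 Chga counts, in place of the summed markers, Abcc8 stayed below (16.3 to 26.6 against 35.0 to 123), but Cacna1a overlapped (24.6 to 51.6 against 37.8 to 193). Trpa1 went the other way: it had 5.67, 5.02 and 3.90 in CD24negTomato+ and 5.17, 5.41 and 5.56 in CD24+Tomato+ libraries, and 0, 1.98 and 2.46 in Tomatoneg libraries, all lower. The other channels, Kcnj11 (1.39 to 2.67 in CD24negTomato+ and 0 to 11.8 in Tomatoneg libraries), Cacna1c, Cacna1d, Cacna1h and Scn3a, overlapped between CD24negTomato+ and Tomatoneg libraries on this measure. In the CD24+Tomato+ table Abcc8 (11.7 to 16.4 against 11.3 to 52.0 in its Tomatoneg libraries) and Cacna1a (13.2 to 17.8 against 15.5 to 76.1) overlapped, while Scn3a (3.65 to 10.3 against 0 to 3.47) and Trpa1 (5.17 to 5.56 against 0 to 2.45) were higher in every CD24+Tomato+ library. For Scn3a this depended on the table. Tomatoneg replicate 3 had 3.47 in this table but 4.62 in the first, above the 3.65 of CD24+Tomato+ replicate 3.

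**Figure D3:**
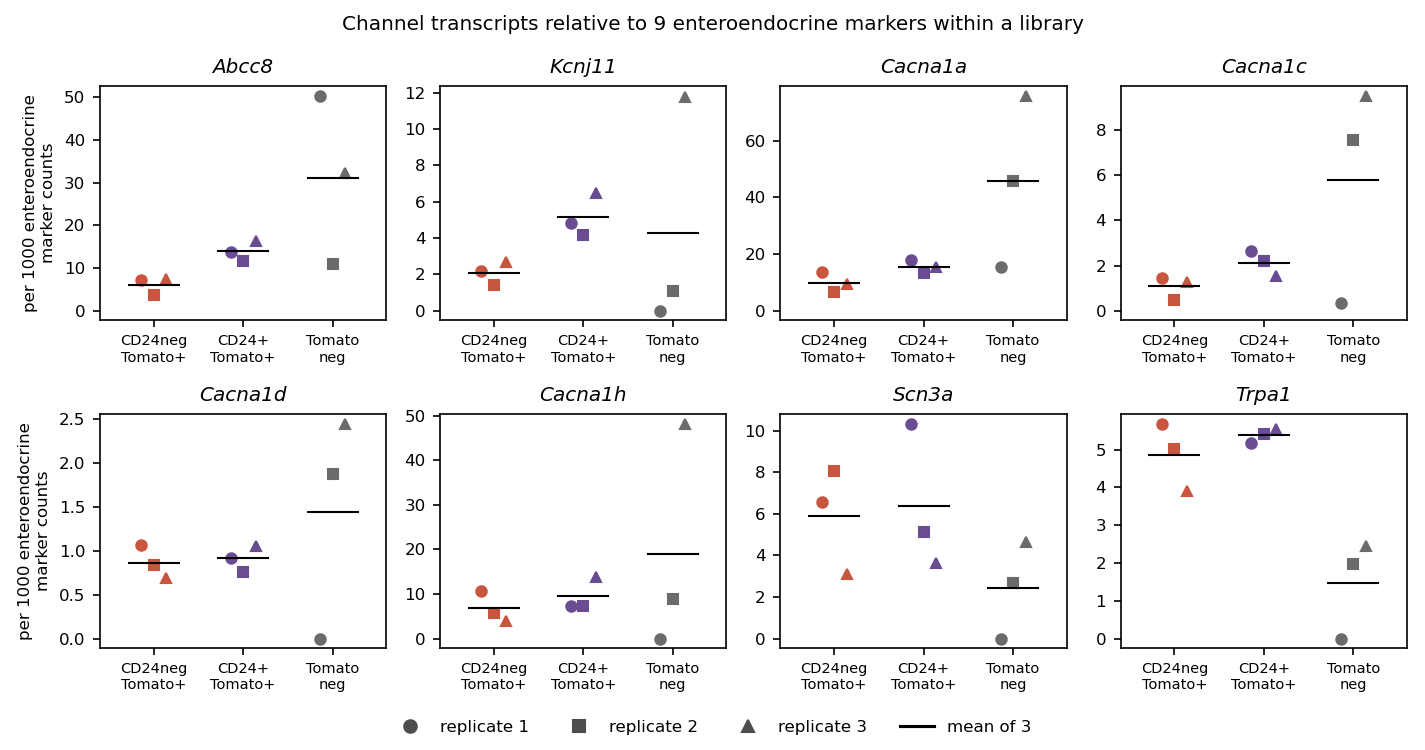
Normalized counts of 8 channel genes per 1000 summed normalized counts of 9 enteroendocrine markers in the same library (y axis, a scale of its own in each panel), for CD24negTomato+, CD24+Tomato+ and Tomatoneg libraries (the latter from the CD24negTomato+ table), with a bar for the mean of 3. Abcc8, Cacna1a, Cacna1c, Cacna1d and Cacna1h are highest on average in Tomatoneg libraries, and Scn3a and Trpa1 are lowest on average in them.

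To see how the wider channel repertoire moved, 146 further channel and channel subunit genes were followed. In CD24negTomato+ cells 52 of them were tested. At a limma adjusted P under 0.05, 2 rose, Kcnk6 and Trpc7, and 0 fell, that is 3.85% higher against 0.999% of all genes. With no adjustment for multiple testing, 24 were higher and 4 lower at a limma P under 0.05. Of all 13420 genes, 1377 were higher and 915 lower at that limit. With the replicate block, 11 rose and 4 fell, where 4.34% of all genes were higher and 2.96% lower. In CD24+Tomato+ cells 66 were tested, of which 29 rose (43.9% against 8.02% of all genes) and 1 fell. With the block 30 rose and 1 fell, where 10.8% of all genes were higher and 9.95% lower. Their median log2 fold changes were 1.65 and 3.51 (1.65 and 3.25 with the 2 and 5 genes at 0 in all Tomatoneg libraries set to their bound). Genes that pass the filter through the group where they are high had to differ, and these medians include them.

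Partners of the calcium channel pores were among the genes that rose in CD24+Tomato+ cells, with 4 of 5 auxiliary subunits tested. Cacna2d1, which carries pores to the membrane, had 814, 528 and 332 normalized counts against 0, 30.2 and 2.01 (log2 fold change 6.85, limma adjusted P = 0.0156). In CD24negTomato+ libraries it had 191, 278 and 172 against 0, 32.8 and 2.14 (5.47, limma adjusted P = 0.0821, 0.0361 with the block). The cytoplasmic β subunits Cacnb1 and Cacnb2 rose by 4.48 (limma adjusted P = 0.0365) and 3.96 (limma adjusted P = 0.0404, lost with the block at 0.0575) in CD24+Tomato+ cells. Of the calcium channel pores outside the 9, 1 was tested, Cacna1b, and it did not pass in either comparison.

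Among the sodium channel subunits, Scn3b, a β subunit, rose by 4.65 (limma adjusted P = 0.0147) in CD24+Tomato+ cells. Scn3b had 125, 92.1 and 41.0 normalized counts there and 89.3, 148 and 37.9 in CD24negTomato+ libraries, against at most 3.18 in Tomatoneg libraries (in CD24negTomato+ 4.72, limma adjusted P = 0.0520, 0.0407 with the block). Scn11a, a sodium channel pore of sensory neurons, was at 0 in all Tomatoneg libraries and at 24.5, 23.1 and 24.3 in CD24+Tomato+ libraries, at least 6.53-fold higher when the Tomatoneg mean is put at the floor of 3 reads per library (limma adjusted P = 0.0207). In CD24negTomato+ libraries it had 5.66 to 10.4, at least 2.23-fold higher, and was not tested.

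Potassium channels carry the outward current that ends an action potential, and 8 of the 18 voltage-gated pores tested rose in CD24+Tomato+ cells (9 with the block). Kcnb2 and Kcnc1, delayed rectifiers, rose by 6.62 and 6.06 (limma adjusted P = 0.0213 and 0.0227). In CD24negTomato+ cells their log2 fold changes were 5.22 and 5.26 (limma adjusted P = 0.119 and 0.0808, and 0.0456 and 0.0412 with the block). Of the 3 accessory subunits tested, 0 rose (1 at an unadjusted P under 0.05 in limma). Of the inward rectifiers 3 of 6 rose in CD24+Tomato+ cells, Kcnj3, Kcnj5 and Kcnj6, all gated by G proteins, by 5.44 (limma adjusted P = 0.0220), 4.70 (limma adjusted P = 0.0453) and 3.92 (limma adjusted P = 0.0465, lost with the block at 0.0719). Kcnj3 had 114, 189 and 87.8 normalized counts in CD24negTomato+ libraries against 6.78, 9.93 and 0 (4.83, limma adjusted P = 0.0736, 0.0359 with the block). Kcnmb2, a subunit of large-conductance calcium-activated channels, rose by 4.39 in CD24+Tomato+ cells (limma adjusted P = 0.0354, lost with the block at 0.0590), 1 of 3 genes of that role. Kcnj8 and Abcc9, which form a KATP channel of vessels, were not tested because their means were under 10.

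The background (K2P) potassium channels, which set the resting potential, moved in both directions. Kcnk16, known from pancreatic endocrine cells, had 1152, 1534 and 1565 normalized counts in CD24+Tomato+ libraries against 0, 44.2 and 23.8 (log2 fold change 7.08, limma adjusted P = 0.0171) and 834, 958 and 888 in CD24negTomato+ libraries against 0, 42.1 and 22.1 (6.48, limma adjusted P = 0.0598, 0.0259 with the block). Kcnk6 rose in both, by 2.24 in CD24negTomato+ (limma adjusted P = 0.0174) and 1.88 in CD24+Tomato+ cells (limma adjusted P = 0.00548). Kcnk5, an epithelial channel, was the 1 gene of the list that fell in CD24+Tomato+ cells, with 713, 437 and 804 normalized counts against 1834, 1808 and 2562 (-1.69, limma adjusted P = 0.0144), while in CD24negTomato+ libraries its values overlapped those of Tomatoneg libraries (-0.31, limma adjusted P = 0.608). The pacemaker channels Hcn4 and Hcn3 rose by 6.16 (limma adjusted P = 0.0197) and 4.94 (limma adjusted P = 0.0193) in CD24+Tomato+ cells.

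Among the sensory and receptor-operated channels, 6 of the 15 tested rose in CD24+Tomato+ cells (7 with the block). Asic5, a channel opened by bile acids, showed the largest log2 fold change of the list, with 1607, 1336 and 603 normalized counts against 0, 22.1 and 1.12 (8.22, limma adjusted P = 0.00808). In CD24negTomato+ libraries it had 3.80, 4.48 and 7.33 against 0, 21.7 and 1.07 and was not tested. Trpc7, a receptor-operated cation channel, was at 0 in all Tomatoneg libraries and at 43.3, 118 and 61.1 in CD24negTomato+ and 126, 144 and 124 in CD24+Tomato+ libraries, at least 21.2-fold and 35.8-fold higher (limma adjusted P = 0.0392 and 0.00391). Trpc4 rose by 4.75 in CD24+Tomato+ cells (limma adjusted P = 0.0255).

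**Figure D4:**
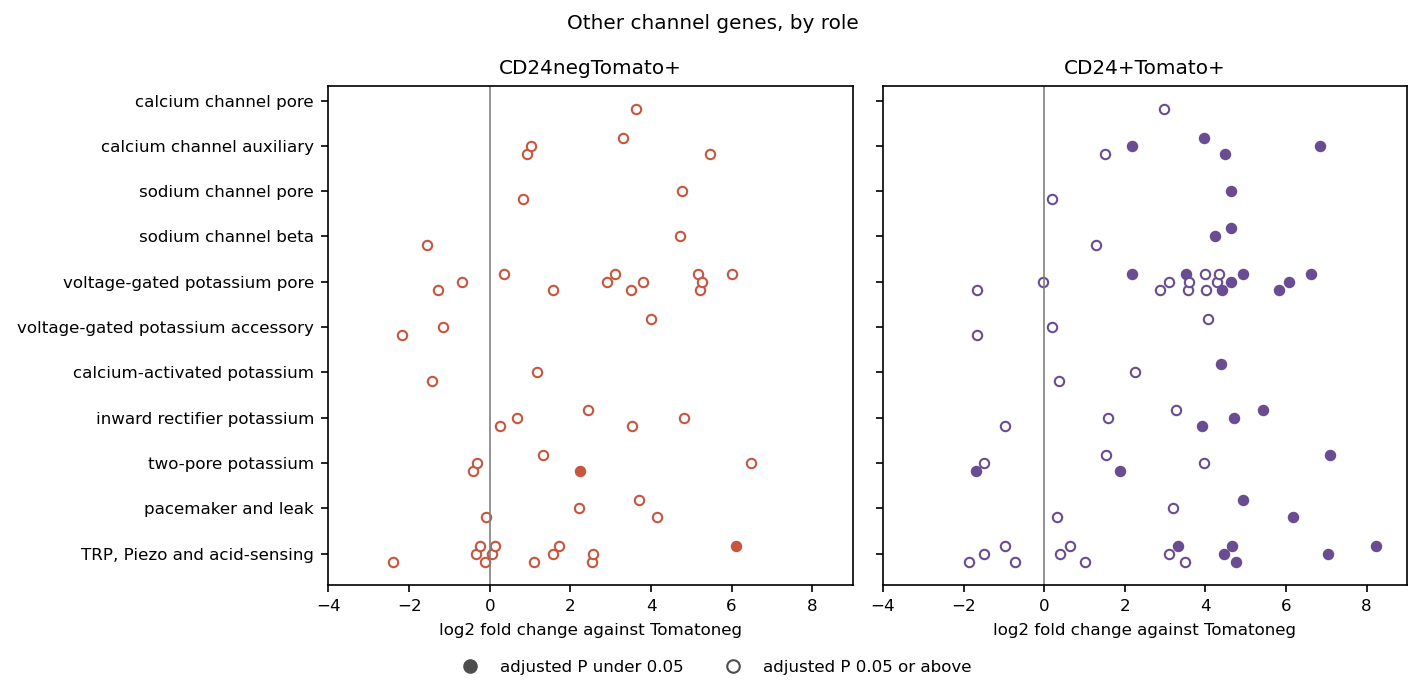
Log2 fold changes against Tomatoneg cells (x axis, on the log2(normalized count + 1) scale) of further channel genes tested, by role (y axis, with points offset vertically for legibility), for CD24negTomato+ (52 genes) and CD24+Tomato+ cells (66 genes). Filled points have a limma adjusted P under 0.05 in the fit without the replicate block. These are 2 in CD24negTomato+ and 30 in CD24+Tomato+ cells, of which 1, a K2P channel, lies below 0.

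Other excitable cells of the gut wall could carry the same channels, and their markers were therefore read in the same libraries. Of 8 enteric neuron markers, Vip did not exceed 2.26 and Nos1 3.26 normalized counts in any library. The summed list was nevertheless higher in Tomato+ libraries (739 to 1227 against 122 to 165, and 1329 to 2877 against 129 to 177), and most of that sum was Ret, with 596 to 891 in CD24negTomato+ and 1150 to 2180 in CD24+Tomato+ libraries. Of the 3 tested, Ret, Snap25 and Uchl1, 2 were higher in CD24negTomato+ and 3 in CD24+Tomato+ cells (2 in the blocked fit). Ret rose by 2.53 (limma adjusted P = 0.0164) and 3.47 (limma adjusted P = 0.00266). Snap25, which endocrine cells also use for exocytosis, rose by 6.04 (limma adjusted P = 0.0361) and 6.62 (limma adjusted P = 0.00983). Uchl1 had 98.1, 45.4 and 21.6 normalized counts in CD24negTomato+ libraries against 1.20, 0 and 12.1 (limma adjusted P = 0.166), and rose by 4.43 in CD24+Tomato+ cells (limma adjusted P = 0.0485, lost with the block at 0.0515). Elavl4, which was not tested, had 5.83 to 11.6 and 9.80 to 27.5 normalized counts in Tomato+ libraries and at most 1.43 in Tomatoneg libraries, below the floor. Enteric glia markers (4 genes) summed to between 5.11 and 15.1 in CD24negTomato+, between 9.31 and 29.3 in CD24+Tomato+ and between 1.33 and 18.4 in Tomatoneg libraries, with Sox10 at 0 in all Tomato+ libraries. Of 7 markers of smooth muscle and interstitial cells of Cajal, the contractile genes Acta2, Myh11, Tagln, Des and Cnn1 did not exceed 7.31 in any Tomato+ library. The list summed to 478 to 748 against 170 to 675 and to 1385 to 2142 against 186 to 723, and in Tomato+ libraries most of these sums was Kit. Kit overlapped between CD24negTomato+ and Tomatoneg libraries (limma adjusted P = 0.689) and rose by 2.27 in CD24+Tomato+ cells (limma adjusted P = 0.0340). Ano1, a chloride channel of interstitial cells, had 93.03, 169 and 146 normalized counts in CD24negTomato+ libraries, above the 15.8, 61.1 and 68.6 of Tomatoneg libraries (log2 fold change 1.67, limma adjusted P = 0.267), and overlapped them in CD24+Tomato+ libraries (0.90, limma adjusted P = 0.460).

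Markers of other epithelial and immune cells differed between the populations. Tuft markers (8 genes) summed to 303 to 317 in CD24negTomato+ against 1083 to 1594 in Tomatoneg libraries, with Il25 and Gnat3 at 0, and to 9790 to 11739 in CD24+Tomato+ against 1288 to 1771, with 3 of 5 tested lower in the first (5 in the blocked fit) and 6 of 8 higher in the second. Of 7 Paneth genes 0 were called by limma in CD24negTomato+ (5 lower at an unadjusted P under 0.05, and 4 lower in the blocked fit) and 7 were higher in CD24+Tomato+ cells. All 7 goblet genes were higher in both. Of the 8 peptide hormone genes 6 and 8 were higher. The remaining genes in CD24negTomato+ cells, Gip and Sst, were lower in every library than in Tomatoneg libraries, with log2 fold changes of -1.75 (limma adjusted P = 0.164, 0.0304 with the block) and -2.34 (limma adjusted P = 0.187, 0.0134 with the block). Of 7 enterocyte genes 0 and 4 were lower by limma (0 and 6 at an unadjusted P under 0.05, 0 and 7 in the blocked fit, which also called 1 higher in CD24negTomato+ cells). Of 6 stem cell genes 1 and 0 were lower by limma (5 and 0 at an unadjusted P under 0.05). In the blocked fit 3 were lower in CD24negTomato+ and 2 higher in CD24+Tomato+ cells. Of 7 lymphocyte genes 2 and 6 were lower (4 and 6 in the blocked fit). Of 5 fibroblast and endothelium genes and 7 acinar genes 0 were called by limma in either comparison, and at an unadjusted P under 0.05 1 of the former was lower and 4 of the latter were higher in CD24+Tomato+ cells, where the blocked fit called 1 acinar gene higher. Of all 13420 genes tested in CD24negTomato+ cells, 1377 were higher and 915 lower at an unadjusted limma P under 0.05. In CD24+Tomato+ cells 2265 and 1598 of 13874 were. The part of the listed cell types in the channel values was not tested.

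Finally, the genes whose pattern across the 6 libraries of each table was most like that of a channel were listed, by the smaller of the Pearson correlations in the 2 tables among 13239 genes. The points share their libraries and fall into Tomato+ and Tomatoneg groups, so high values are common, and no P is given. For Abcc8 these were Tbc1d8 (0.991), Syp (0.990), which encodes the vesicle protein synaptophysin, and Rundc3a (0.982). For Cacna1a they were Rtl5 (0.993), Unc80 (0.993), a subunit of the sodium leak channel complex, and Spock2 (0.991), and for Scn3a they were Unc80 (0.994), Slc31a2 (0.994) and Gm609 (0.991). For Trpa1 they were Cldn4 (0.999), Tshz2 (0.996) and Efcab15 (0.996). Kcnj11 was followed by Ccdc92, Myl7 and F2 (0.991 to 0.993), Cacna1c by AI413582, Cbarp and Prox2 (0.987 to 0.991), Cacna1d by Bmp6, Rcan3 and Tubb2b (0.992 to 0.997) and Cacna1h by Mmp24, Gmpr and Olfm1 (0.994 to 0.995). Cbarp, which followed Cacna1c, encodes a regulatory protein of calcium channel β subunits.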

How the data were processed

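Poly-A RNA from 3 sorted populations was sequenced, with 3 libraries of each that the labels call biological replicates. Per the paper's methods, suspensions were stained for Epcam and CD24 after removal of attached pancreata. The labels do not say whether replicates came from single or pooled mice. The authors deposited a signal per gene, that is, kallisto 0.44.0 estimates on GRCm38 divided by DESeq2 size factors within each table of 6 libraries (bcl2fastq 2.19 and sleuth are also named in the submitters' processing notes). Only 25.2% to 47.8% of values under 20 fell within 0.02 reads of a whole multiple of the most common low value, so whole reads were not recovered and no count model was used. That value was taken as 1 read to estimate depth, and floors cover counting error only.

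Log2(normalized count + 1) of genes averaging 10 or more was modelled by limma (version 3.58.1, R 4.3.3; linear fit and empirical Bayes with an intensity trend), two-sided, with Benjamini-Hochberg adjustment over all genes tested and a threshold of 0.05. Fold changes are on that scale. The added 1 draws in those of low genes, but a library at 0 can make them larger than the log2 of the ratio of means. For Cacna1h in CD24negTomato+ cells, at 0 in Tomatoneg replicate 1, the log2 fold change was 4.45 where the ratio of means was 8.85. The fit without a replicate block was also run on simulated data with independent noise in each library. That run does not test the pairing of libraries described next. Deviations from the group means were positively correlated between same-numbered libraries (correlations across genes of 0.302, 0.291 and 0.342 for CD24negTomato+ and 0.283, 0.180 and 0.375 for CD24+Tomato+ libraries with Tomatoneg libraries), so the numbers in the labels were taken to pair the samples, and the fit with this number as a block is given beside results where it changes a call. Neither source says what the number marks.

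The channels, the wider channel list and the marker lists were chosen with earlier results of these data known. Named were the 9 channels, per role up to 3 further channels with the largest log2 fold change among those past the threshold in a comparison, the 3 genes most like each channel in pattern, the markers and Foxo1. A few genes that this rule names are not reported here by name, but stay in the counts and sums. Genes that share sequence with a channel and Trpm5 were added after their values were seen. Alternatives were pseudocounts of 0.1 and 10, no filter, a mean of at least 50, a minimum log2 fold change of 1, equal library totals, quantile normalization, the replicate block and single libraries left out. Positions and words of 31 bases come from GENCODE M21, promoters from RefSeq (GRCm38.p6), where 2 of 9 channels matched. Summaries were made in Python 3.11.15 (pandas 2.3.3, numpy 2.4.6) and figures in matplotlib 3.10.9.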

Additional observations from a re-analysis of the deposited data

Results flagged for a closer look

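Trpm5, a cation channel of tuft cells that was picked out of the wider channel list after its values were seen, went in opposite directions in the Tomato+ populations. It had 115, 65.4 and 56.8 normalized counts in CD24negTomato+ libraries and 279, 526 and 434 in the Tomatoneg group (log2 fold change -2.39, limma adjusted P = 0.0512, 0.0389 with the replicate block, and 0.02004 to 0.259 over all settings run). In CD24+Tomato+ libraries it had 5102, 3786 and 4233 against 310, 556 and 471, and rose by 3.32 on the log2 scale (limma adjusted P = 0.00152). All 3 same-numbered pairs went down in the first comparison and up in the second. Whether the populations differ in this was not tested, since their tables were scaled separately. The tuft marker Pou2f3 moved the same way, with 5.23 to 10.7 normalized counts in CD24negTomato+ and 711 to 812 in CD24+Tomato+ libraries.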

How the results depend on the processing

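The log2 fold changes of the 8 channels tested were above 0 under every alternative run, from 1.12 to 7.34 in CD24negTomato+ and from 2.97 to 8.65 in CD24+Tomato+ cells, but calls depended on the setting. In CD24negTomato+ the number of channels past the threshold, 1, became 0 with a pseudocount of 0.1, 3 with a pseudocount of 10, 0 with a mean of at least 50 (6 tested), 2 with quantile normalization and 0 to 5 with single libraries left out. It was 5 without Tomatoneg replicate 1 and 0 without any CD24negTomato+ replicate or Tomatoneg replicate 3. In CD24+Tomato+ the number, 8, became 5 with a pseudocount of 0.1 and 1 to 8 with single libraries left out, with 5, 1 and 4 without CD24+Tomato+ replicates 1, 2 and 3. Over all genes, the 177 called in CD24negTomato+ cells became 112 and 415 with pseudocounts of 0.1 and 10, and 18 to 1059 with single libraries left out (20, 18 and 45 without CD24negTomato+ replicates 1, 2 and 3, 1059 without Tomatoneg replicate 1 and 107 without Tomatoneg replicate 3). In CD24+Tomato+ cells the 1791 called became 168 to 2478 (669, 168 and 329 without CD24+Tomato+ replicates 1, 2 and 3). The cause of these shifts was not tested. Leaving out a library also leaves fewer samples to estimate the spread.

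With the replicate block, which pairs libraries by number, the calls were 979 and 2885 genes and 3 and 8 channels. Of the further channels named, Cacnb2, Kcnmb2 and Kcnj6 lost their calls in CD24+Tomato+ cells under the block, with adjusted P over all settings of 0.0170 to 0.190, 0.0267 to 0.154 and 0.0343 to 0.124. In CD24negTomato+ cells the channels that gained one ranged from 0.0271 to 0.359 for Cacna2d1, 0.0224 to 0.359 for Scn3b, 0.0431 to 0.458 for Kcnb2, 0.0290 to 0.359 for Kcnc1, 0.0222 to 0.361 for Kcnj3 and 0.00492 to 0.298 for Kcnk16. Kcnk6 and Trpc7, called there without the block, reached 0.132 and 0.345, and lost their calls in 8 fits with single libraries left out. In CD24+Tomato+ cells such fits lost 57 calls of further channels and kept 69, Trpm5 included. The adjusted P there reached 0.112 for Kcnc1, 0.103 for Hcn4 and 0.0933 for Cacna2d1 and Kcnk16. It stayed at or under 0.0439 for Kcnk6 and 0.0443 for Scn11a. No alternative turned the direction of any gene named with a log2 fold change for which alternatives were run. Values near 3 reads, as for Piezo2, cannot show a difference at this depth.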
